A study of Homo sapiens with 2 samples.

Results

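The nuclear genes that encode the subunits of respiratory chain complexes I to IV were examined in PLC-8024 cells, a human hepatocellular carcinoma (HCC) cell line, with and without overexpression of GDF1, a secreted ligand of the TGF-β superfamily. Members were chosen by gene symbol alone: NDUFA, NDUFB, NDUFC, NDUFS and NDUFV numbers and NDUFAB1 for complex I, SDHA to SDHD for complex II, the UQCR genes and CYC1 for complex III, and the main COX subunits for complex IV. The rule found 62 rows of 58174, which stand for 61 genes because SDHD was listed in 2 rows. Complex I had 38 genes, complex II 4, complex III 9 and complex IV 10. The control group was PLC-8024-CTR, given a control vector, and the other group was PLC-8024-GDF1, cells transduced with a viral vector for human GDF1, with stable cells selected by puromycin. Both come from 1 cell line, and no further agent is named for either. Each group had 1 library, so no difference has a replicate check, no test was made and every value describes these 2 libraries. What drives the GDF1 transgene, and whether a clone or a pool was sequenced, is not given in the sources used here.

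The respiratory chain sits in the inner mitochondrial membrane. Complex I takes electrons from NADH and complex II takes them from succinate, both pass them to ubiquinone, complex III passes them on to cytochrome c, and complex IV hands them to oxygen. Complexes I, III and IV pump protons and are built from subunits of both the nuclear and the mitochondrial genome, whereas complex II pumps none, is wholly nuclear-encoded and is also the succinate dehydrogenase of the citric acid cycle. Liver cells are rich in mitochondria, and nuclear respiratory genes are known for promoters with binding sites for NRF1, the ETS factor GABP, YY1 and SP1.

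The promoters of 5 subunits on which the results turn are shown: 3 of the 4 complex II genes, NDUFS1, the subunit with the lowest log2 change, and NDUFS8, the core subunit with the highest. They are the 250 bases before the RefSeq transcription start on GRCh38.p14, each written 5′ to 3′ on the strand of its gene. Capitals mark matches, on either strand, to the 4 motifs searched: GCGC, any base, then TGCGC for NRF1, CCGGAAGT for ETS factors, AAGATGGC for YY1 and GGGCGG for SP1. Each motif was searched for separately, also where matches overlap. SDHA (chr5:218070-218319, plus strand) held 4 NRF1 matches. SDHB (chr1:17054033-17054282, minus strand) held 1 SP1 match. SDHD (chr11:112086623-112086872, plus strand) held 1 NRF1 and 1 ETS match. NDUFS1 (chr2:206159445-206159694, minus strand) held 1 ETS and 1 SP1 match. NDUFS8 (chr11:68030431-68030680, plus strand) held none of these letters and has no capitals.
SDHA: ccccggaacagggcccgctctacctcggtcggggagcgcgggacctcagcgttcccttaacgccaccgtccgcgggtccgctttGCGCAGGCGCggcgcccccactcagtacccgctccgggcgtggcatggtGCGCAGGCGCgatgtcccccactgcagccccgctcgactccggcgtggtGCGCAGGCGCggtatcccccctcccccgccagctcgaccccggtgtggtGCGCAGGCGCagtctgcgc
SDHB: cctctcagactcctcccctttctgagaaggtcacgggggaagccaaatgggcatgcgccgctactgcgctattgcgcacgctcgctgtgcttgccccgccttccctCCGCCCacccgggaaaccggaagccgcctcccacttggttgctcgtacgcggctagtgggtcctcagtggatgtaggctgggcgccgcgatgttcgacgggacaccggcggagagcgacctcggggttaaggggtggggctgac
SDHD: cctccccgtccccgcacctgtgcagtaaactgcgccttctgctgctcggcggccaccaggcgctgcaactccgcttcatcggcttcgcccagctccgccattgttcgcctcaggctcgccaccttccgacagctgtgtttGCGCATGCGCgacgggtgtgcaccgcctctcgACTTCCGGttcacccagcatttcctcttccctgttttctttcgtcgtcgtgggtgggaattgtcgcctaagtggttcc
NDUFS1: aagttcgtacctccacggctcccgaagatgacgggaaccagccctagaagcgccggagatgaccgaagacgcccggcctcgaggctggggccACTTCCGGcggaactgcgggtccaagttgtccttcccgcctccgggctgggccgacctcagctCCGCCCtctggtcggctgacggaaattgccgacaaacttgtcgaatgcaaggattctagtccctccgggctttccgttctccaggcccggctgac
NDUFS8: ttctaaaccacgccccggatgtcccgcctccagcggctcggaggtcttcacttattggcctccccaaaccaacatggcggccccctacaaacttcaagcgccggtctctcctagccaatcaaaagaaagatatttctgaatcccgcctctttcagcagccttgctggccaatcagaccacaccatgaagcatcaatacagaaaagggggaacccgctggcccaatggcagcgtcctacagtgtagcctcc

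The authors aligned the reads to hg19 and deposited TPM, an abundance per transcript length scaled to the same total in each library, so levels of different genes can be compared but the depth of sequencing cannot be read from the values and no counting error can be given. Changes are given on the log2(TPM + 1) scale, PLC-8024-GDF1 minus PLC-8024-CTR, which understates the change of genes at low TPM, and a gene is said to have risen or fallen past a log2 change of 0.58 (1.5-fold) either way. A level of 1 TPM or more in at least 1 library was reached by 14929 genes, whose log2 changes had a median of -0.20. Throughout, the level in PLC-8024-CTR is given before that in PLC-8024-GDF1. GDF1 was listed at 2.10 and 4.64 TPM, while CERS1, which shares the GDF1 locus, was listed at 13.3 and 9612 TPM. How reads of the transgene were assigned between these 2 rows was not tested, so neither is read as the level of its gene. The paper reports higher GDF1 protein in these cells by western blot. Of 7 hepatocyte lineage markers, 7 reached 1 TPM in PLC-8024-CTR and 6 in PLC-8024-GDF1, and their summed level was 6098 and 3167 TPM. Of 4 epithelial markers, the keratins KRT8 and KRT18 were high in both libraries, at 1424 and 1777 TPM and at 1005 and 1224 TPM, CDH1 fell from 10.4 to 0.329 TPM, and EPCAM stood at 0.172 TPM and then at 0. Markers of other cell types stayed low, with PTPRC and VWF at 0 (listed as 0.0001 TPM) in both libraries. The exceptions were CD68, at 33.1 and 13.2 TPM, and PECAM1, at 23.2 and 22.2 TPM. The part of these shifts in the results on subunits was not tested. In bulk RNA of this kind, fewer cells of a type and less RNA per cell cannot be told apart.

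The 61 subunits as a whole lay close to no change, with complex II lower than the rest. Their median log2 change was 0.02, against -0.20 over all 14929 genes, and 31 of 61 were above 0 (50.8%, against 36.7% of all genes). Only 5 subunits, all of complex I, rose past 1.5-fold (8.20%, against 11.5% of all genes), and 6 fell (9.84%, against 25.3%), of which 3 belonged to complex I and 3 to complex II. Past 2-fold, 0 subunits rose (against 4.82% of all genes) and 1, NDUFS1, fell (against 9.61%). The other 50 lay within 1.5-fold. With the PLC-8024-GDF1 values multiplied by 1.15, so that the median gene with at least 5 TPM did not change, the median of the subunits was 0.23, and 13 subunits were past 1.5-fold upwards and 4 downwards. The shares of all genes given above do not apply to these counts, because rescaling moves all genes. For counts under rescaling or with trends removed, here and below, the share of all genes is not reported.

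Most subunits were among the abundant transcripts of these cells. The median level was 238.5 TPM in control cells and 229.7 TPM with GDF1, above 96.1% and 96.0% of the expressed genes. In each library 42 of the 61 reached 100 TPM. COX6A1, a complex IV subunit, was the highest in PLC-8024-CTR at 1189 TPM and stood at 1250 TPM in PLC-8024-GDF1. NDUFB7, a complex I accessory subunit, was next at 1030 TPM and became the highest in PLC-8024-GDF1 at 1532 TPM. The complex IV subunit COX6B1 followed at 1004 and 1417 TPM. The lowest were NDUFB5 at 9.21 and 8.99 TPM, NDUFS1 at 10.7 and 4.80 TPM, and SDHD at 17.9 and 10.7 TPM, so the span from lowest to highest widened from 129.0-fold to 319.0-fold. The order of the subunits was nearly the same in both libraries (Pearson's r of log2 TPM 0.98, Spearman's rho 0.97, over 61 genes that share the 2 libraries). Added up, the subunits took 17231 TPM in control cells and 20103 TPM with GDF1, or 1.72% and 2.01% of all transcripts, a log2 change of 0.22.

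**Figure D1:**
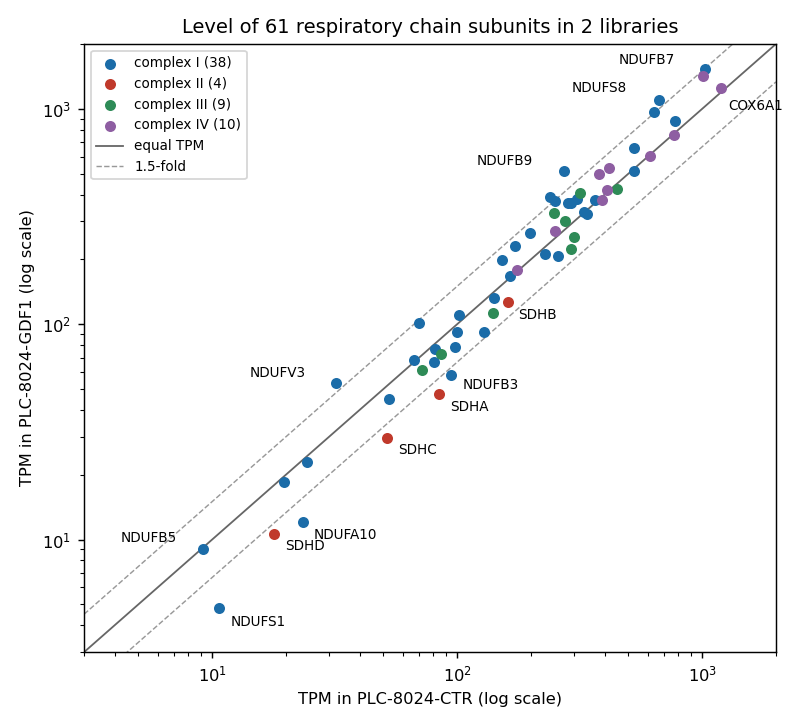
Level of each of the 61 subunits, with the PLC-8024-CTR library on the x axis and the PLC-8024-GDF1 library on the y axis, in TPM on log scales; each point is 1 gene in 1 library per group, coloured by complex, the solid line marks equal TPM and the dashed lines 1.5-fold. Most points lie between the dashed lines, while NDUFS1, NDUFA10, NDUFB3, SDHA, SDHC and SDHD lie below them and NDUFB9 lies farthest above.

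Complex I carried both the highest and the lowest changes. Its 38 genes had a median log2 change of 0.03, with 21 above 0 and 17 below, and their summed level was 9139 TPM in control cells and 11403 TPM with GDF1. The 7 core subunits, which hold the flavin and the iron-sulphur clusters, had a median of 0.03 but went apart. NDUFS8 (chr11:67798084-67804111 of GRCh37), an iron-sulphur subunit close to the ubiquinone site, rose from 664.9 to 1105 TPM (log2 change 0.73). NDUFS1 (chr2:206979541-207024233), the largest subunit of the complex and part of the NADH-oxidising module, fell from 10.7 to 4.80 TPM (-1.01). The ratio of NDUFS8 to NDUFS1 thereby went from 62.2 to 230.1.

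Other core subunits stayed within 1.5-fold. NDUFV1, which binds NADH and the flavin, was listed at 528.8 and 657.5 TPM (0.31), and its partner NDUFV2 at 363.6 and 375.9 TPM (0.05). Within the NADH-oxidising module NDUFV1 and NDUFV2 were thus above 0 in log2 change while NDUFS1, by far the least abundant of the 3, was below. Among the subunits that line the path to ubiquinone, NDUFS3 was listed at 66.8 and 68.2 TPM (0.03) and NDUFS7 at 227.6 and 212.8 TPM (-0.10). NDUFS8 was the one core subunit to rise.

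The 31 accessory subunits of complex I, which surround the core and are needed for its assembly and stability, had a median log2 change of 0.02. Of these, 4 rose (12.9%, near the 11.5% of all genes) and 2 fell (6.45%, against 25.3%). NDUFB9, an LYR-motif protein of the membrane arm, rose most of all subunits, from 272.0 to 516.1 TPM (0.92). NDUFV3 (chr21:44299754-44333414), a small partner of the NADH-oxidising module, rose from 32.1 to 53.4 TPM (0.72). NDUFA13 (chr19:19626545-19639863), also known as GRIM-19, rose from 238.5 to 390.1 TPM (0.71). NDUFB11 (chrX:47001470-47004865), of the membrane arm, rose from 636.8 to 966.3 TPM (0.60). Just under the 1.5-fold line stood NDUFB1, at 250.7 and 373.3 TPM, and NDUFB7, at 1030 and 1532 TPM (both 0.57). Of those that fell, NDUFA10 (chr2:240831867-240965160), a relative of nucleoside kinases, went from 23.4 to 12.0 TPM (-0.91). NDUFB3 (chr2:201936156-201950473), a membrane arm subunit, went from 94.8 to 58.0 TPM (-0.70).

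By name family, the 11 NDUFB genes, most of which encode membrane arm subunits, had a median log2 change of 0.30 (0.16 with GC and length trends removed), and their summed level went from 3273 to 4545 TPM (0.47). NDUFB9 and NDUFB11 rose, NDUFB3 fell, and 5 of the 11 were below 0. The 13 NDUFA genes had a median of 0.02, the 8 NDUFS genes -0.03, the 3 NDUFV genes 0.31 and the 2 NDUFC genes -0.10. NDUFAB1, the mitochondrial acyl carrier protein that also serves fatty acid synthesis, was listed at 258.7 and 206.9 TPM (-0.32). NDUFA4, counted here with complex I by its symbol although it is now placed in complex IV, was listed at 165.0 and 167.8 TPM (0.02), and counting it with complex IV gave medians of 0.03 for both complexes.

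**Figure D2:**
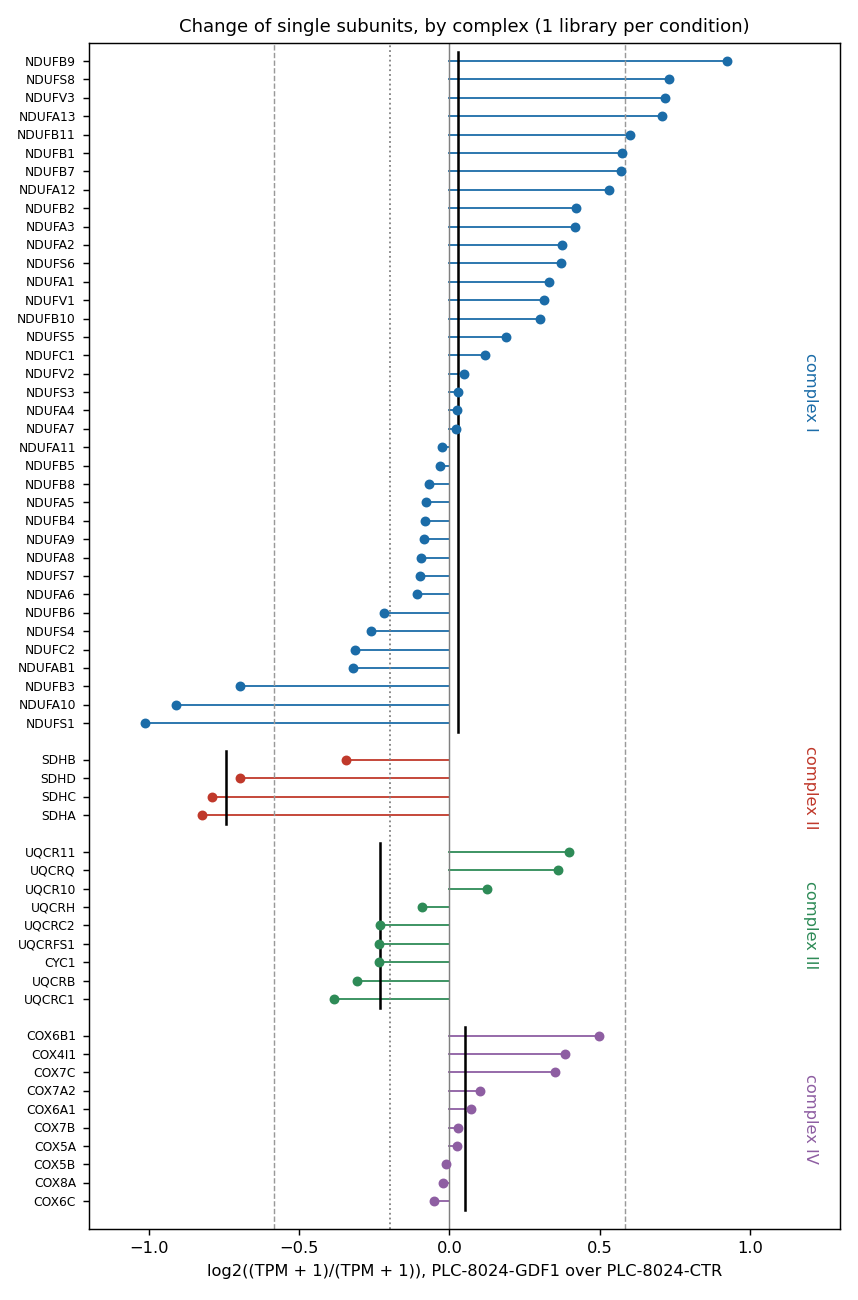
Log2 change of single subunits, GDF1 over control, on the x axis, with 1 row per gene shown, grouped by complex; black bars mark the median over all genes of each complex, dashed lines 1.5-fold and the dotted line the median of all expressed genes (-0.20). The 4 genes of complex II all lie left of 0, complex I runs from -1.01 (NDUFS1) to 0.92 (NDUFB9), and no gene of complexes III and IV passes a dashed line in the values as deposited, though some do once these are rescaled.

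Complex II had the lowest values of the 4 complexes. All 4 of its genes were lower in PLC-8024-GDF1, 3 of them past 1.5-fold (75%, against 25.3% of all genes), with a median log2 change of -0.74. Only 36.7% of all genes were above 0, so a lower value was the more common state in these libraries. SDHA (chr5:218418-257197), the flavoprotein that oxidises succinate, fell from 84.4 to 47.3 TPM (-0.82). SDHC (chr1:161284171-161332996), a membrane anchor, fell from 51.8 to 29.5 TPM (-0.79). SDHD (chr11:111957548-111990739), the other anchor, whose promoter with its NRF1 and ETS matches is given above, fell from 17.9 to 10.7 TPM (-0.70). SDHB (chr1:17345159-17380527), the iron-sulphur subunit, was the most abundant and moved least, at 160.8 and 126.3 TPM (-0.35). The ratio of SDHB to SDHA, subunits present in equal number in the enzyme, went from 1.90 to 2.67. Added up, the 4 genes stood at 314.9 and 213.8 TPM (-0.56). A second row listed as SDHD, which the annotation does not give that name and which overlaps the gene, was at 2.09 TPM and then at 0 (listed as 0.0001).

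The size of the shift in complex II depended on processing. Its place below the other complexes did not in any alternative computed, though not every alternative could change that place. With PLC-8024-GDF1 rescaled to an unchanged median gene the median of complex II was -0.55, and with the GC trend of all protein-coding genes removed it was -0.31, neither past 1.5-fold, and SDHB alone then stood at 0.04. Adding the TPM of SDHA pseudogenes, which were listed at 39.8 and 37.5 TPM, brought SDHA to 124.2 and 84.7 TPM (-0.55).

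In complex III no subunit passed 1.5-fold as deposited, the core and redox subunits lay below 0, and the small subunits lay on both sides of it. Its 9 genes had a median of -0.23 in log2 change, with 3 above 0, and their summed level was 2183 and 2185 TPM. UQCRC1 (chr3:48636435-48648409), a core protein, was listed at 292.7 and 224.0 TPM (-0.38), and the other core protein, UQCRC2 (chr16:21964609-21994981), at 72.0 and 61.2 TPM (-0.23). Of the redox subunits, CYC1, the haem-bearing cytochrome of the complex, was listed at 298.8 and 253.7 TPM (-0.24). UQCRFS1 (chr19:29696227-29704058), the Rieske iron-sulphur protein, was listed at 85.7 and 72.7 TPM (-0.23). All of the core and redox subunits were thus lower in PLC-8024-GDF1, each by less than 1.5-fold.

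Among the 5 small subunits of complex III, 3 were higher. UQCR11 (chr19:1597168-1605472) was listed at 249.4 and 329.0 TPM (0.40), UQCRQ (chr5:132202322-132204539) at 316.7 and 406.8 TPM (0.36) and UQCR10 (chr22:30163358-30166402) at 276.4 and 301.5 TPM (0.12). The hinge protein UQCRH (chr1:46769370-46782448), which helps cytochrome c dock, was listed at 450.7 and 423.1 TPM (-0.09). UQCRB, a small subunit near the ubiquinone site, was listed at 140.1 and 113.1 TPM (-0.31). UQCR11 stood below UQCRC1 in PLC-8024-CTR and above it in PLC-8024-GDF1, with a ratio of 0.852 and 1.47. With the GC trend removed the median of complex III turned to 0.23, so its sign rests on that choice, and UQCR11 (0.63) and UQCRQ (0.71) were then past 1.5-fold.

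The 10 nuclear genes of complex IV stayed within 1.5-fold as deposited, a count that depends on scaling: COX6B1 (0.70) and COX4I1 (0.59) were past it with PLC-8024-GDF1 rescaled, and COX6B1 (0.71), COX4I1 (0.62) and COX7C (0.84) with the GC trend removed. Their median log2 change was 0.05, 7 were above 0, and their summed level was 5594 and 6301 TPM (0.17). COX6B1, which faces the intermembrane space where the dimer meets, was listed at 1004 and 1417 TPM (0.50). COX4I1, the largest nuclear-encoded subunit, was listed at 380.1 and 496.8 TPM (0.39), and COX7C at 418.1 and 533.5 TPM (0.35). The other 7 genes lay between -0.05 (COX6C) and 0.10 (COX7A2). COX5A and COX5B, the subunits on the matrix side, were listed at 410.2 and 417.8 TPM and at 609.9 and 605.6 TPM.

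Set side by side, the medians of complexes I and IV differed by 0.02 on the log2 scale, while complex II lay 0.77 below complex I, 0.79 below complex IV and 0.51 below complex III. Complex III lay 0.26 below complex I and 0.28 below complex IV. In summed TPM, the ratio of complex I to complex II went from 29.0 to 53.3, that of complex IV to complex II from 17.8 to 29.5 and that of complex III to complex II from 6.93 to 10.2. With only 4 genes in complex II, its median rests on few values. Every one of 9 alternatives that changed scaling, minimum, trends or added rows, and 3 added after the data were seen, left complex II lowest wherever it was computed. Not all of them could have changed its place. Every subunit passes the other minimums, so those repeat the reported values, and rescaling moves all complexes by nearly the same amount. Counting or adding the second SDHD row could only lower complex II, and placing NDUFA4 with complex IV gave no value for complex II. The order above complex II was IV, I and III, except that complex III was highest, at 0.25, with GC and length trends both removed. Complexes I and IV lay within 0.08 of each other in all of them, and with NDUFA4 counted in complex IV both stood at 0.03.

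Over the pooled set, subunit class and transcript length went together with the changes. The 13 catalytic, core or redox subunits of complexes I to III had a median log2 change of -0.23 with 4 above 0, and the 46 accessory or small subunits of complexes I, III and IV had a median of 0.05 with 27 above 0. With the GC trend removed the medians were 0.04 and 0.45, so that the first class was no longer below 0 and still below the second. Complex II enters only the first class, by SDHA and SDHB, and complex IV only the second. The membrane anchors SDHC (-0.79) and SDHD (-0.70), both lower in PLC-8024-GDF1, are in neither class. Within complex I the classes hardly differed, with medians of 0.03 for core and 0.02 for accessory subunits. Within complex III core and redox subunits stood at -0.31 and -0.23 and small subunits at 0.12. The median length of the canonical transcript was 1560 bases in the first class and 676.5 bases in the second. The 30 subunits below 0 had a median transcript length of 1249.5 bases and a median GC content of 45.9%, and the 31 above 0 had 675 bases and 52.7%. Across the 61 genes the log2 change had a Pearson's r of -0.45 and a Spearman's rho of -0.47 with log10 length, 0.37 and 0.38 with GC content, and 0.50 and 0.48 with log2 TPM in PLC-8024-CTR, which enters the change itself. All of these points share the same 2 libraries.

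Among the protein-coding genes of these libraries, the subunits included, the correlations had the same signs, with a weaker value for length. Over the 8454 with at least 5 TPM, r was -0.19 and rho -0.22 with length, and 0.31 and 0.36 with GC content. In the class under 600 bases the median log2 change was 0.33 for 17 subunits and 0.27 for 160 other genes, and from there to under 1000 bases it was 0.05 for 19 subunits and 0.12 for 535 others. From 1000 to under 2000 bases the medians were -0.23 for 13 subunits and -0.13 for 2042 others, and from 2000 bases on -0.16 for 12 subunits and -0.32 for 5656 others. Within length classes the subunits thus lay close to other genes of like length. Within GC classes they lay above them, with medians of -0.08 and -0.51 under 45%, 0.07 and -0.29 from 45 to 55%, and 0.31 and -0.0053 from 55% on. NDUFV3, with a canonical transcript of 5725 bases, and NDUFB3, with 493 bases, went against this direction. Which transcript of a gene these cells made cannot be read from these values, so the length of NDUFV3 is that of the annotation only. With both trends removed, NDUFB9 (0.83), NDUFV3 (1.11) and NDUFB3 (-0.64) were still past 1.5-fold, while NDUFS8 (0.35), NDUFA13 (0.29), NDUFB11 (0.30), NDUFA10 (-0.47), NDUFS1 (-0.53), SDHA (-0.53), SDHC (-0.53) and SDHD (-0.28) were not, and NDUFS7 (-0.63), NDUFA12 (0.61) and UQCRQ (0.68) came to be. The part of transcript length and GC content in these changes was not tested.

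Reads of some subunits can be shared with neighbours or copies. For 7 subunits an expressed gene of another name overlaps on the same strand, and SDHD is overlapped by the second row of that name, with which it stood at -0.85. The largest same-strand shift came from NDUFA7, at 327.7 and 332.6 TPM, whose overlapping row AC010323.1 was listed at 5.21 and 51.0 TPM, so that both together gave 333.0 and 383.6 TPM (0.20). NDUFA13 overlaps YJEFN3, at 16.0 and 20.8 TPM, and AC011448.1, at 66.4 and 81.0 TPM. On the opposite strand an expressed gene overlaps 11 subunits, and whether reads were assigned by strand is not given in the sources used here. NDUFA7 overlaps RPS28, at 1191 and 1541 TPM, and both together stood at 0.30. NDUFB6 overlaps SMIM27, at 5.44 and 13.05 TPM, and went from -0.22 to 0.0021 with it added. NDUFB9 overlaps TATDN1, at 21.9 and 15.1 TPM, and stood at 0.85 with it added. Pseudogene rows existed for 33 subunits, with a summed 79.0 and 69.3 TPM in 112 rows, or 0.458% and 0.345% of the subunits' TPM. They were not minor for SDHA, whose copies at 39.8 and 37.5 TPM end its call when added (-0.55), and UQCRFS1 had copies at 18.9 and 10.2 TPM (-0.33 when added).

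The genes that assemble the complexes moved in both directions. Of 13 complex I assembly factors (median -0.26, and 0.01 with the GC trend removed) 1 rose and 3 fell (23.1%, against 25.3% of all genes), and 1 fell under rescaling or with trends removed. ECSIT, an assembly factor that also acts in innate signalling, rose from 26.1 to 99.1 TPM (1.89). NDUFAF1 and TMEM126B, which work with it in the same assembly complex, fell from 19.7 to 9.33 TPM (-1.01) and from 21.8 to 12.8 TPM (-0.72), and NDUFAF6 fell from 12.1 to 7.54 TPM (-0.62). Of 4 complex II factors (median -0.24), SDHAF3, which helps the iron-sulphur subunit SDHB mature, fell from 14.3 to 4.96 TPM (-1.36). Of 6 complex III factors (median -0.30), UQCC3 rose from 22.9 to 37.6 TPM (0.69). Of 21 complex IV factors (median -0.07), PET100 rose from 111.7 to 184.3 TPM (0.72), COA1 fell from 58.0 to 33.1 TPM (-0.79) and COX20, a chaperone of a catalytic subunit, fell from 25.9 to 16.6 TPM (-0.61). COX18 also fell, from 2.59 to 0.113 TPM (-1.69), and is named after its values were seen.

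Other parts of oxidative phosphorylation did not follow 1 direction either. The 17 ATP synthase genes had a median log2 change of 0.17, with 0 risers and 3 that fell (17.6%, against 25.3% of all genes). With the GC trend removed 4 rose and 2 fell. ATP5A1 and ATP5B, the alpha and beta subunits of the catalytic head, fell from 390.9 to 194.1 TPM (-1.01) and from 361.3 to 204.0 TPM (-0.82), and ATP5F1, of the peripheral stalk, fell from 89.8 to 23.5 TPM (-1.89). CYCS, the cytochrome c that links complexes III and IV, was listed at 37.5 and 27.2 TPM (-0.45, and 0.04 with the GC trend removed). All 13 subunits encoded in the mitochondrial genome were below 0 (median -0.53), while 36.7% of all genes were above 0. As deposited 5 fell (38.5%, against 25.3% of all genes): MT-ATP8, MT-ND4L, MT-ND5, MT-ND1 and MT-CO1. Once PLC-8024-GDF1 was rescaled, 4 of the 13 were above 0 and 3 fell. With the GC trend removed their median was -0.09, 5 were above 0 and 2 fell. With GC and length trends removed it was -0.25, 0 were above 0 and 3 fell. The summed level of the 13 was 132018 and 104733 TPM, against 17231 and 20103 TPM for the 61 nuclear subunits. Of 9 alternative or tissue-restricted isoforms, 5 reached 1 TPM and 3 of these rose (60%, against 11.5% of all genes). They were COX7B2, a paralogue of COX7B, from 9.59 to 18.6 TPM (0.89), and NDUFA4L2 and COX6B2, which stayed under 5 TPM. COX6B2, at 0.584 and 1.44 TPM, reached the minimum of 1 TPM only in PLC-8024-GDF1, where it was higher. The 60% rests on few genes and in part on that minimum, so it is not read as an excess. NDUFA4L2 and COX6B2 are named after their values were seen.

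Of the regulators of respiratory genes, most were lower as deposited. Of 12 listed, 10 reached 1 TPM, their median log2 change was -0.60 (-0.42 with the GC trend removed), and 0 rose and 5 fell (50%, against 25.3% of all genes). The count that fell was 4 with PLC-8024-GDF1 rescaled, 3 with the GC trend removed and 1 with GC and length trends removed, where 4 of the 10 were above 0. GABPA and GABPB1, the subunits of the ETS factor GABP, fell from 3.32 to 0.949 TPM (-1.15) and from 13.2 to 5.81 TPM (-1.06). TFAM and TFB2M, which transcribe the mitochondrial genome together with its polymerase, fell from 4.51 to 1.51 TPM (-1.14) and from 12.1 to 6.54 TPM (-0.79), and the coactivator PPRC1 fell from 34.0 to 21.2 TPM (-0.66). NRF1 was listed at 8.54 and 7.33 TPM, YY1 at 13.4 and 12.6 TPM, ESRRA at 47.8 and 32.7 TPM, TFB1M at 18.4 and 14.2 TPM and the polymerase POLRMT at 104.0 and 113.7 TPM. PPARGC1A, the coactivator PGC-1α, stood under 0.1 TPM in both libraries.

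Letters bound by NRF1, ETS factors and YY1 were found in a larger share of subunit promoters than of all promoters. A RefSeq promoter from 250 bases before to 50 bases after the start was found by symbol for 51 of the 61 genes, and 41 of the 51 held at least 1 of the 4 motifs. The NRF1 letters were in 12 of 51 (23.5%), against 6.28% of 27305 genes with a promoter and 12.3% of the 9605 of these that were expressed here. By complex they were in 6 of 32 complex I promoters, 2 of 3 of complex II, 4 of 7 of complex III and 0 of 9 of complex IV. The ETS letters were in 8 of 51 (15.7%, against 4.44% and 9.06%), the YY1 letters in 8 (15.7%, against 3.03% and 5.55%) and the SP1 letters in 30 (58.8%, against 44.6% and 70.3%). Subunits with and without the NRF1 letters had median log2 changes of -0.08 and 0.05. The SDHA promoter shown above, with its 4 NRF1 matches, belongs to a gene that fell, and UQCR11, with 2, was listed higher in PLC-8024-GDF1. A match of letters is a description of the window and not a binding site.

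The 61 genes lie on 20 chromosomes. The 9 on chromosome 19 had a median log2 change of 0.40, against 0.06 over all expressed genes of that chromosome. They ran from -0.23 (UQCRFS1) to 0.71 (NDUFA13), with NDUFS7 (-0.10) and NDUFA11 (-0.02) also below 0. Other chromosomes differed, with medians of 0.36 for members and -0.30 for all expressed genes on chromosome 5, 0.0046 and -0.13 on chromosome 11, and -0.35 and -0.22 on chromosome 1.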

How the data were processed

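RNA-seq covered 1 library of PLC-8024-CTR and 1 of PLC-8024-GDF1. Per the labels and the methods, reads were trimmed, mapped to hg19 by HISAT2 and quantified by StringTie, and the submitters' processing notes list FastQC 0.11.2, Trimmomatic 0.36, HISAT2 2.1.0, bedtools 2.26.0 and StringTie 1.3.3b. The authors deposited 1 TPM value per gene and library for 58174 rows, in a column headed as a mean, and what it averages is not given in the sources used here. TPM is scaled by transcript length and library total, so it keeps no depth, and a value of 0.0001 stands for 0. Identifiers in the files are from Ensembl, although RefSeq is the annotation that the methods name.

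The members and the gene lists were chosen with earlier results of these data known. Every member could be named, and of the other lists those genes past 1.5-fold that reached 5 TPM in at least 1 library, with each regulator and CYCS. Log2 changes used a pseudocount of 1 and genes that reached 1 TPM in at least 1 library. For SDHD the row that the annotation gives that name (ENSG00000204370) was used, and the other row (ENSG00000255292) is given apart. Rows of SCO2, an assembly factor listed in 2 rows, were added up. Gene positions, canonical transcript lengths and GC content came from GENCODE release 44 on GRCh37, which held 55726 of the 58174 identifiers, with the longest transcript where none was marked canonical (NDUFB6 among the members). Promoters were the first window that RefSeq lists for a symbol. Proteins, which the rule for named genes also asked for, were not analysed here. Some single-gene values are not reported here. Trends over protein-coding genes with at least 5 TPM were fitted by lowess with a span of 0.3. Alternatives were a pseudocount of 0.1, a plain ratio, rescaled TPM, removal of GC or of GC and length trends, other minimums, added pseudogene rows, NDUFA4 placed with complex IV and, chosen after seeing the data, both treatments of the second SDHD row and the addition of overlapping genes. Calculations were made with pandas 2.3.3 and numpy 2.4.6, trends with statsmodels 0.14.6, correlations with scipy 1.17.1 and plots with matplotlib 3.10.9, under Python 3.11.15, and were tested on simulated data.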

Additional observations from a re-analysis of the deposited data

How the results depend on the processing

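No paired analysis was possible because there is 1 library for each condition. With TPM rescaled to an unchanged median gene, the median log2 change of complex II was -0.55, 13 subunits were past 1.5-fold upwards, 1 past 2-fold upwards and 0 past 2-fold downwards. With the GC trend removed, the medians were -0.31 for complex II and 0.23 for complex III, 15 subunits were past 1.5-fold upwards and 1 downwards, and 3 were past 2-fold upwards and 0 downwards. With GC and length trends removed, the medians were -0.41 and 0.25, 2 subunits were past 1.5-fold downwards, 1 past 2-fold upwards and 0 past 2-fold downwards. The shares of all genes past these folds are not reported here for these settings. The cause of these shifts was not tested. Among the alternatives chosen after seeing the data, counting both SDHD rows put 2 subunits past 2-fold downwards, because it adds a row, and adding overlapping genes brought the median of all subunits to -0.00061. A pseudocount of 0.1, a plain ratio, a minimum of 5 TPM and no minimum kept each of the 61 genes on its side of 1.5-fold, and pseudogene rows took SDHA to -0.55. The sum of the subunits was not computed with trends removed. TPM keeps no depth, so counting error is unknown, and with 1 library per condition the spread between cultures is unknown.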
